A study of Saccharomyces cerevisiae with 48 samples.

Results

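The 43 alpha factor-treated segregants of a budding yeast cross were split by the signal of AYT1 (YLL063C), a gene near the left end of chromosome XII, and every other gene was then compared between the sides so defined. The members of each side were chosen by the measured AYT1 level alone. A segregant was placed on the HS959 side if its AYT1 level was nearer to that of the treated parental line HS959, and on the S96 side if it was nearer to that of the treated parental line S96. This gave 21 HS959-side and 22 S96-side segregants, together 43 of the 48 arrays of the series. The other arrays held the parents HS959 and S96 with and without alpha factor and SEG8 without it, and are shown beside the segregants.

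All strains were haploid MATa Saccharomyces cerevisiae, and the labels give the segregants as offspring of YJM789 X S96. The labels do not say how HS959 relates to YJM789. Cultures at an optical density of 0.6 were incubated for 30 min at 30 °C with 5 µM alpha factor, the peptide pheromone of MATalpha cells, or without it for the untreated arrays, and total RNA was labelled with Cy3 for 1-colour Agilent arrays. Each segregant is 1 haploid strain measured on 1 array, and the labels do not say that cultures were grown separately, so the p-values cover only the spread from array to array, and some of that spread may be technical.

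AYT1 encodes an acetyltransferase that acts on trichothecene-type toxins. Its inward neighbours include several genes of sulfur compound use: MHT1, which transfers a methyl group from S-methylmethionine to homocysteine to make methionine, MMP1, the S-methylmethionine permease, JLP1, a dioxygenase that releases sulfur from sulfonates, HSU1 (YLL058W), a homocysteine synthase homologue, and YCT1, a cysteine transporter. In a cross, a variant near a gene that changes the level of that gene is called local, and one that changes genes elsewhere is called distant; neighbours on a chromosome are mostly inherited together, and genes farther apart are separated by recombination.

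Levels are log2 values of the background-corrected spot intensity relative to the 75th percentile of each array, averaged over the 2 spots of a gene. AYT1 levels of HS959-side segregants had a lowest value of -13.71, a median of -12.07 and a highest value of -9.59. Those of S96-side segregants had a lowest value of -2.57, a median of -1.63 and a highest value of -0.85. These values chose the sides and are a description with no test.

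The sides were separated by an empty interval of 7.02 on the log2 scale, and the midpoint of the treated parents, -6.25, lay inside it. The values just outside the interval were -9.59 (SEG14) and -9.76 (SEG30) on the HS959 side, and -2.57 (SEG45) and -2.41 (SEG21) on the S96 side. AYT1 was well above background on 1 of 21 HS959-side arrays, SEG30, and on 22 of 22 S96-side arrays. The HS959-side levels other than that of SEG30 are therefore bounds, that of SEG14 included, and their order has no meaning.

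The parents lay within the ranges of their sides with and without pheromone. AYT1 stood at -11.16 in treated and -11.19 in untreated HS959, against -1.34 in treated and -2.25 in untreated S96. SEG8, an HS959-side segregant, stood at -13.01 with and -11.31 without alpha factor. AYT1 had 1 probe on the array, like every gene, so these levels cannot separate a changed amount of RNA from a changed sequence under the probe. The same limit holds for the differences of MHT1, YLL059C, JLP1, ENT4 and all other genes between the sides.

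**Figure D1:**
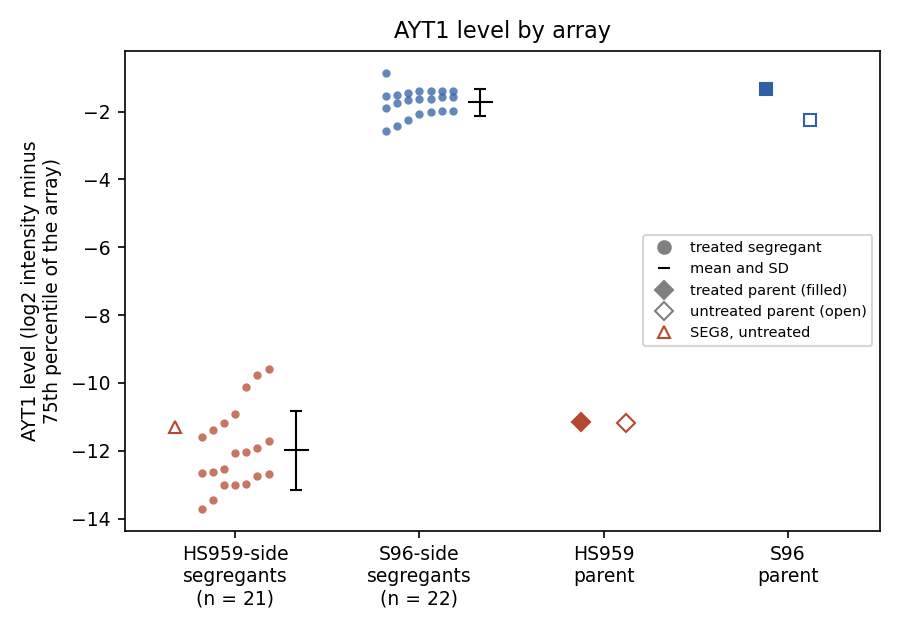
AYT1 level of each array (vertical axis, log2 intensity relative to the array's 75th percentile) for HS959-side segregants, S96-side segregants and both parents; bars give the mean and SD of a side, filled parent symbols are treated and open symbols untreated. The segregants form clusters around -12.07 and -1.63 (medians), with no array between -9.59 and -2.57.

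A total of 3 segregant arrays stood apart from the rest. SEG9 (HS959 side) and SEG42 (S96 side) had chromosome XII levels raised by a median of 0.79 and 0.80 over 540 genes, against -0.15 to 0.06 in the other 41 segregants. SEG14 (HS959 side) had the lowest share of gene spots well above background, 94.0%, against up to 99.9% on other arrays. Median intensities ran from 10488 to 18398 on HS959-side arrays and from 9804 to 23353 on S96-side arrays. The difference of YLL059C is also given without SEG9 and SEG42 and without SEG14, that of ENT4 without SEG9 and SEG42, and that of JLP1 without SEG14. The difference of STR3, which was highest in SEG14, is given with all arrays only.

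Across the rest of the genome the sides differed at very few genes. Of 6239 genes tested with limma, 2 (0.0321%) passed a Benjamini-Hochberg adjusted p under 0.05, and both lay close to AYT1: MHT1 and the reading frame YLL059C were lower on the HS959 side. No gene passed in the higher direction. At an unadjusted p under 0.05 there were 150 genes (2.4%), of which 82 (1.31% of all tested) were lower and 68 (1.09%) higher on the HS959 side. Chromosome XII held 11 of them (2.04% of its 540 genes). A rank-sum test with the same adjustment called 3 genes, MHT1, YLL059C and JLP1.

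The precision of a difference rests on the number of arrays and on the spread of the gene within the sides. The SE of a difference had a median of 0.0882 on the log2 scale. For 6035 genes (96.7%) the 95% confidence interval, not adjusted for the number of genes tested, lay within 1 log2 unit, or 2-fold, in either direction. The median absolute difference over all genes was 0.055. For bulk RNA, fewer cells carrying a transcript and less of it per cell cannot be told apart.

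The signal of MHT1 (YLL062C), adjacent to AYT1, was 5.13-fold lower on the HS959 side. A changed sequence under its probe was not tested. The MHT1 level in HS959-side segregants had a lowest value of -6.26 (SEG4), a median of -3.19 and a highest value of -1.13 (SEG44). In S96-side segregants the lowest value was -1.86 (SEG6), the median -1.02 and the highest -0.41 (SEG36). Of the HS959-side segregants, 19 of 21 lay below the lowest S96-side value, so the groups overlapped at 2 HS959-side segregants.

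The difference of MHT1 was -2.36 ± 0.28 (SE; 95% interval -2.92 to -1.80; limma adjusted p = 6.10e-07). MHT1 was below the S96-side median in 21 of 21 HS959-side segregants. The parental difference, HS959 minus S96, was -3.79 with and -2.11 without alpha factor. Within the 5 slides that held at least 2 segregants of each side, the difference ran from -3.12 to -1.44 and was negative on each.

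MHT1 varied more within the HS959 side than within the S96 side, with an SD of 1.27 over 21 segregants and 0.42 over 22. Placed by their own MHT1 level between the treated parents, 38 of 43 segregants fell on the same side as for AYT1. The 5 exceptions, SEG11, SEG13, SEG35, SEG44 and SEG47, were all HS959-side segregants with MHT1 levels from -2.37 to -1.13, nearer to S96. Only SEG11 at -1.71 and SEG44 at -1.13 lay above the lowest S96-side value, -1.86. SEG13, SEG35 and SEG47 lay below it. AYT1 was not well above background in any of the 5 exceptions, and no S96-side segregant had an MHT1 level nearer to HS959.

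SEG8 allowed a look at MHT1 without pheromone in a single segregant. Its MHT1 level was -3.91 with and -4.31 without alpha factor, both near the -4.64 of treated and -4.01 of untreated HS959 and below the -0.85 of treated and -1.90 of untreated S96.

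YLL059C, a reading frame with no standard gene name in the reference table, lies on the inward side of GTT2. Values of -5.46, -4.95 and -3.87 were the lowest, median and highest in HS959-side segregants, against -4.97, -4.47 and -3.61 in S96-side segregants. The highest values on the sides belonged to SEG9 and SEG42, the segregants with raised chromosome XII. YLL059C lay below the S96-side median in 20 of 21 HS959-side segregants, although 12 of 21 lay above the lowest S96-side value.

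The difference of YLL059C was -0.49 ± 0.10 (SE; 1.40-fold lower; limma adjusted p = 0.0489), and the parental difference was -0.85 with and -0.79 without alpha factor. This call lies at the threshold: it was kept in 11 of 43 fits that each left out 1 segregant, with adjusted p from 0.000723 without SEG9 to 0.106 without SEG44, while the difference itself stayed between -0.54 and -0.45. Without both SEG9 and SEG42 it was -0.50 with an adjusted p of 0.000467, and without SEG14 it was -0.48 with an adjusted p of 0.0649. Within the 5 slides it ran from -0.65 to 0.03 and was negative on 4, and with slide as a block the adjusted p was 0.0795.

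JLP1 (YLL057C) differed by -0.81 ± 0.22 (SE; limma adjusted p = 1.00; unadjusted p = 0.000787), which did not pass. Its levels in HS959-side segregants were -6.06 at the lowest, -5.07 at the median and -1.08 at the highest, against -5.10, -4.08 and -3.14 in S96-side segregants. The -1.08 of SEG14 stood above all 42 other segregants, and 20 of 21 HS959-side segregants lay below the S96-side median.

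The missing call rested on that array. Without SEG14 the difference of JLP1 was -0.999 with a limma adjusted p of 1.46e-05, and with all arrays the rank-sum test gave an adjusted p of 0.0288. HS959 minus S96 was -0.46 with and -0.90 without alpha factor, and 36 of 43 segregants had JLP1 on the same side as AYT1. Within the 5 slides the difference ran from -1.25 to -0.08, the last being that of slide 3, which holds SEG14.

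ENT4 (YLL038C), an epsin-like endocytic adaptor farther in on the left arm, moved the other way without passing. Its levels in HS959-side segregants were -2.85, -1.27 and -0.28 (lowest, median, highest), against -2.99, -2.34 and -0.90 in S96-side segregants, a difference of 0.68 ± 0.20 (SE; limma adjusted p = 1.00; unadjusted p = 0.00127). The parental difference was 0.98 with and 0.66 without alpha factor, and within the 5 slides the difference between the sides ran from -0.09 to 1.38, positive on 4. The highest HS959-side value was that of SEG9, and without SEG9 and SEG42 the difference was 0.63.

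By its own level, ENT4 put 34 of 43 segregants on the same side as AYT1. The exceptions were 5 HS959-side segregants (SEG4, SEG25, SEG30, SEG38 and SEG44) with S96-like levels of -2.85 to -2.32, and 4 S96-side segregants (SEG2, SEG5, SEG31 and SEG32) with HS959-like levels of -1.30 to -0.90. Of these, SEG44 was also an exception for MHT1. The sides overlapped: 22 of 22 S96-side values lay below the highest HS959-side value, and 21 of 21 HS959-side values lay above the lowest S96-side value.

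**Figure D2:**
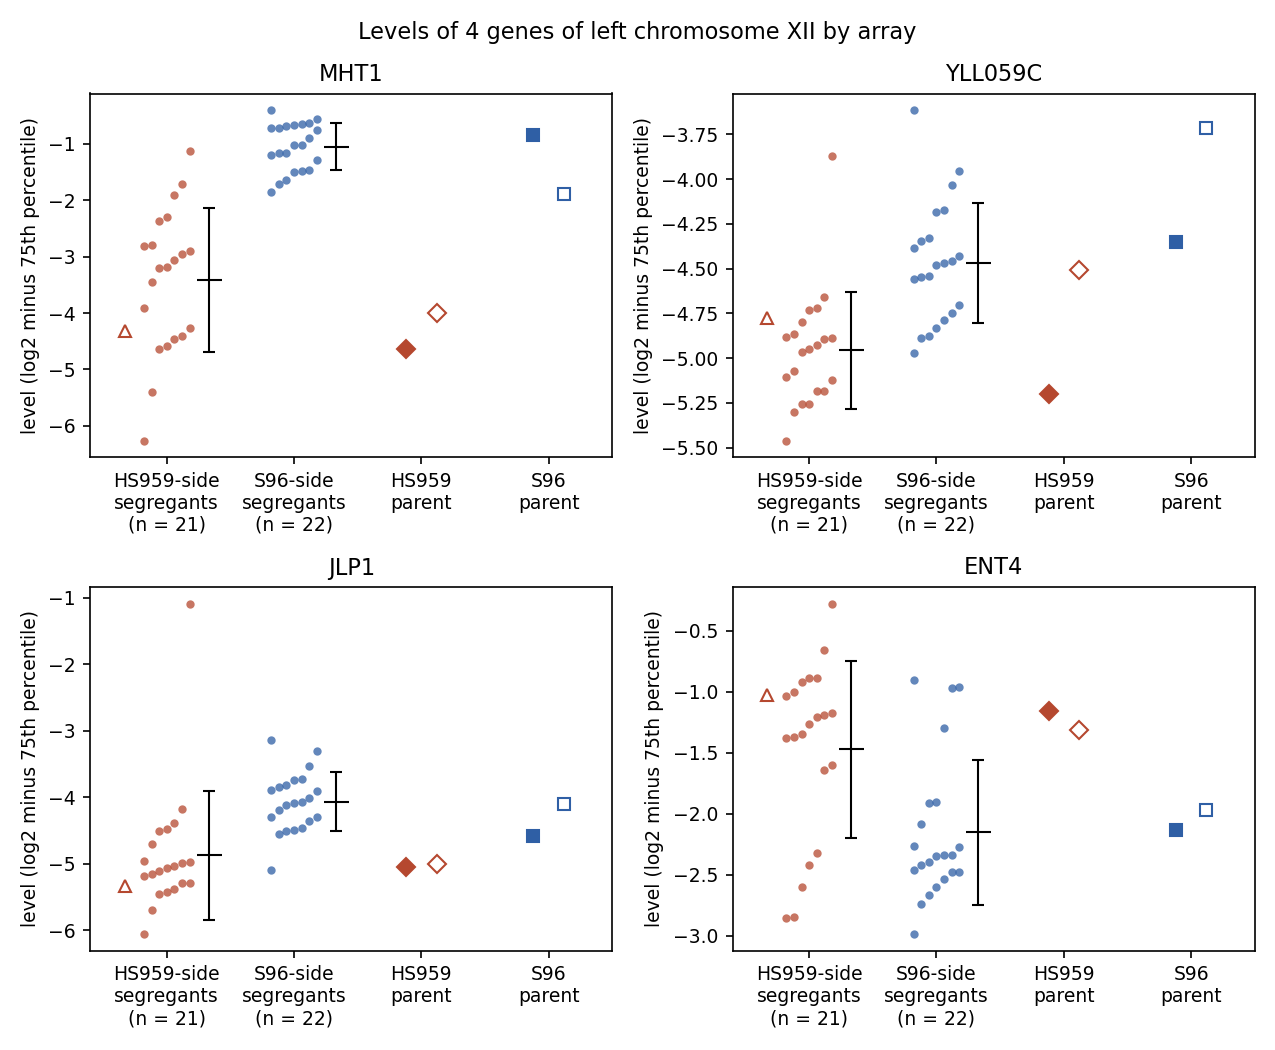
Levels of MHT1, YLL059C, JLP1 and ENT4 by array (vertical axes, log2 intensity relative to the 75th percentile), with HS959-side segregants left of S96-side segregants and the parents at the right; bars are mean and SD, filled parent symbols treated, open ones untreated, and the open triangle is untreated SEG8. MHT1 separates the sides except at 2 HS959-side segregants, the JLP1 value of SEG14 at -1.08 stands alone, and ENT4 shows exceptions on both sides.

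The other genes around AYT1 showed small differences that mostly pointed the same way. Of the 22 genes tested from YLL045 outward to the left end, 17 were lower and 5 higher on the HS959 side, and 2 were called. Over all 6239 genes tested, 2981 were lower and 3258 higher. Within 10 positions of AYT1 in the systematic names, 13 of 14 genes were lower, with a median difference of -0.17 against 0.0041 over all genes. Of the 22 genes, 13 had the sign of both parental differences, as did 2630 of all 6239.

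The sulfur genes of the left end were a list of 6: MHT1, MMP1, JLP1, HSU1, YCT1 and GTT2, the last a glutathione S-transferase. All 6 had lower means on the HS959 side and 1 was called, against 2981 lower and 2 called of all 6239 genes tested. The 6 lie within 10 positions of AYT1, where 13 of 14 genes were lower, so the count is not particular to sulfur genes. MMP1, which directly follows MHT1, averaged -1.58 ± 0.56 in HS959-side and -1.39 ± 0.37 in S96-side segregants (SD), a difference of -0.19 ± 0.14 (SE), although the parents differed by -0.74 with and -1.69 without alpha factor. HSU1 differed by -0.20 ± 0.11, GTT2 by -0.11 ± 0.16 and YCT1 by -0.06 ± 0.12 (SE), and none of these passed.

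Outward of AYT1, PAU18, a seripauperin gene, was higher on the HS959 side by 0.48 ± 0.28 (SE) and did not pass. The subtelomeric frames YLL065W, YLL066C and YLL067C differed by -0.24 ± 0.39, -0.22 ± 0.16 and -0.10 ± 0.12 (SE). YLL066C and YLL067C are helicase-like frames of the Y' element, and these frames and the PAU genes have near-identical copies on other chromosome ends, so their probes may share signal with those copies.

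Farther inward the median absolute difference was lower, at 0.12 in positions 11 to 20 from AYT1 and 0.12 in positions 21 to 40, against 0.19 within 10 positions. In positions 11 to 20 from AYT1, 5 of 10 genes were higher and 5 lower, with none called, YLL047W being the highest at 0.44 ± 0.16 (SE; unadjusted p = 0.00726). In positions 21 to 40, 6 of 20 genes were higher, ENT4 among them, and none was called. The remaining 23 genes of the left arm ran from -0.31 to 0.18. Of 473 right-arm genes, 239 were higher and 234 lower, 5 had an unadjusted p under 0.05, and none was called by limma or by the rank-sum test.

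**Figure D3:**
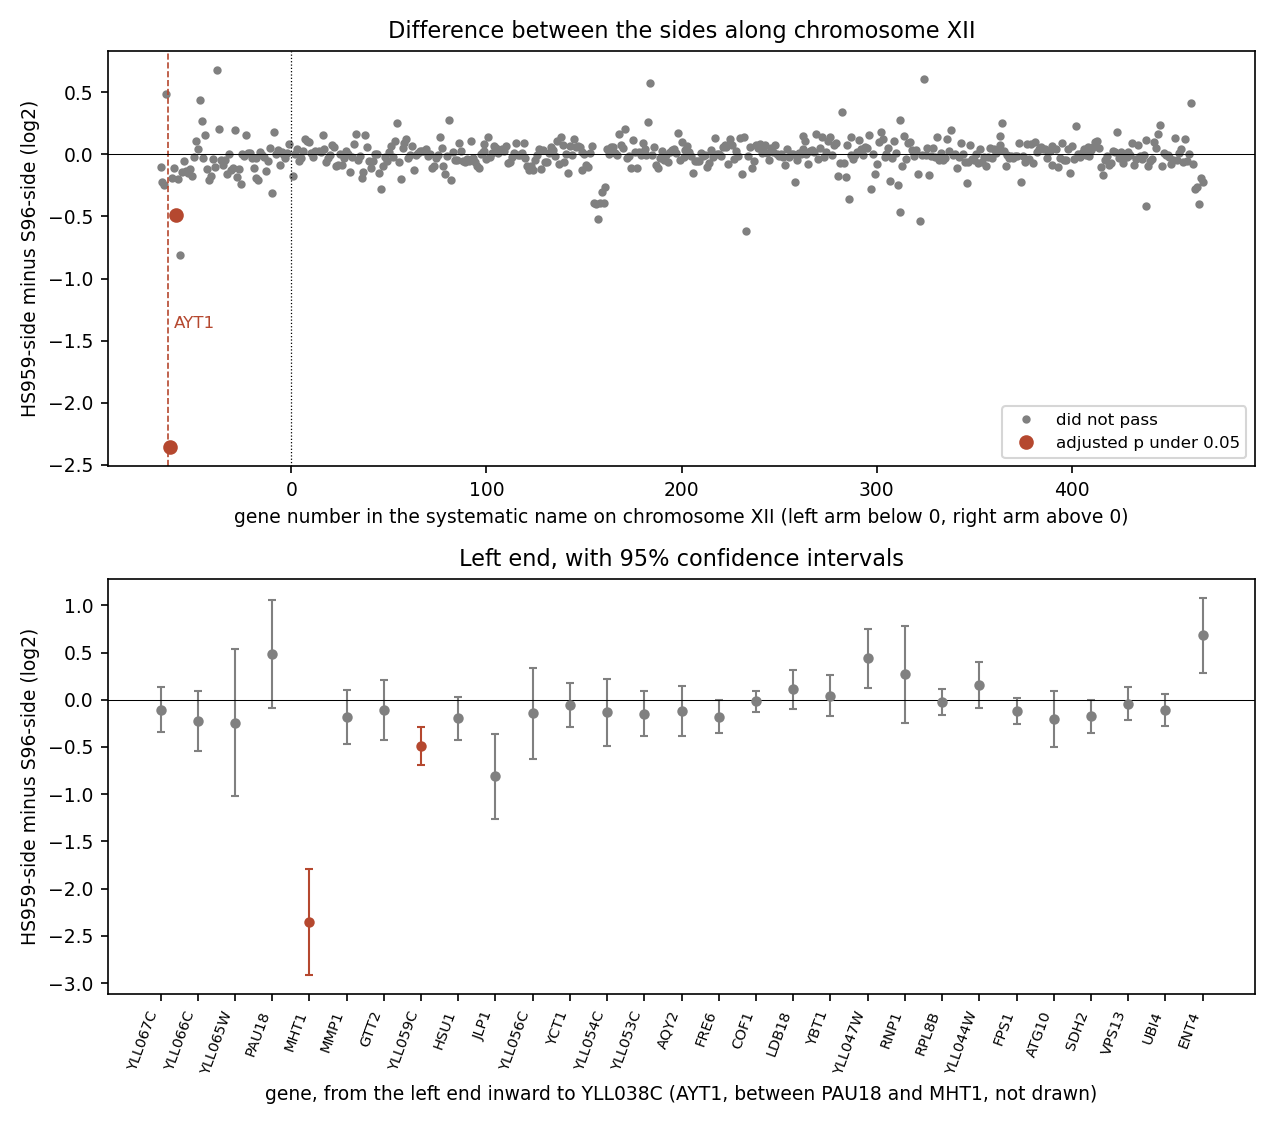
Difference between HS959-side and S96-side means (vertical axes, log2) against the number in the systematic gene name along chromosome XII (upper panel) and for each gene from the left end inward to ENT4 with its 95% confidence interval (lower panel); red marks an adjusted p under 0.05. MHT1 at -2.36 and YLL059C at -0.49 are the called genes, and the right arm scatters around 0.

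Whether the AYT1 side went with parent-like levels of other genes was read from genes with a large parental difference. That difference was at least 2 log2 units of one sign in both conditions. A parent-like level need not give the parental origin of the gene's own place. CTS1 of the right arm of chromosome XII, DSE1 of chromosome V and DSE2 of chromosome VIII had the same counts. Each was HS959-like in 9 of 21 HS959-side and 7 of 22 S96-side segregants. The parents chose these genes, and each segregant was placed by the nearer treated parent. Of 15 such genes on chromosome XII, MHT1 shared the side of AYT1 in 38 of 43 segregants, and the next, EST1, in 25. The 14 on the right arm shared it in 18 to 25, with a median of 23. They are not 14 separate places. ASP3-1 to ASP3-4, YLR156W, YLR159W and YLR161W lie side by side in 1 stretch, and each shared it in 23. The 103 on other chromosomes or in the mitochondrial genome shared it in 15 to 29, with a median of 22. FLO11 of chromosome IX and RMA1 and GEX2 of chromosome XI reached 29. HO of chromosome IV and the mitochondrial COX1, AI5_ALPHA, ATP6 and COX2 were nearer to S96 in all 43 segregants. Their count of 22 is therefore only the number of S96-side segregants. EST1, FLO11, RMA1 and GEX2 were named after their values were seen.

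The cross-counts with 8 segregating genes showed no association that passed. PEX30, a peroxisomal gene of the right arm of chromosome XII, was HS959-like in 8 of 21 HS959-side and 10 of 22 S96-side segregants (two-sided Fisher's exact test, p = 0.760). ASP3-4, an asparaginase gene of the same arm with near-identical copies beside it, was HS959-like in 10 of 21 and 9 of 22 (exact p = 0.763). HMS1, a transcription factor gene of chromosome XV, was HS959-like in 19 of 21 and 16 of 22 (exact p = 0.240). Over the 8 genes, which also included UIP3, YER188W, PRM8, ARN2 and REE1, the adjusted p was 0.763 throughout.

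**Figure D4:**
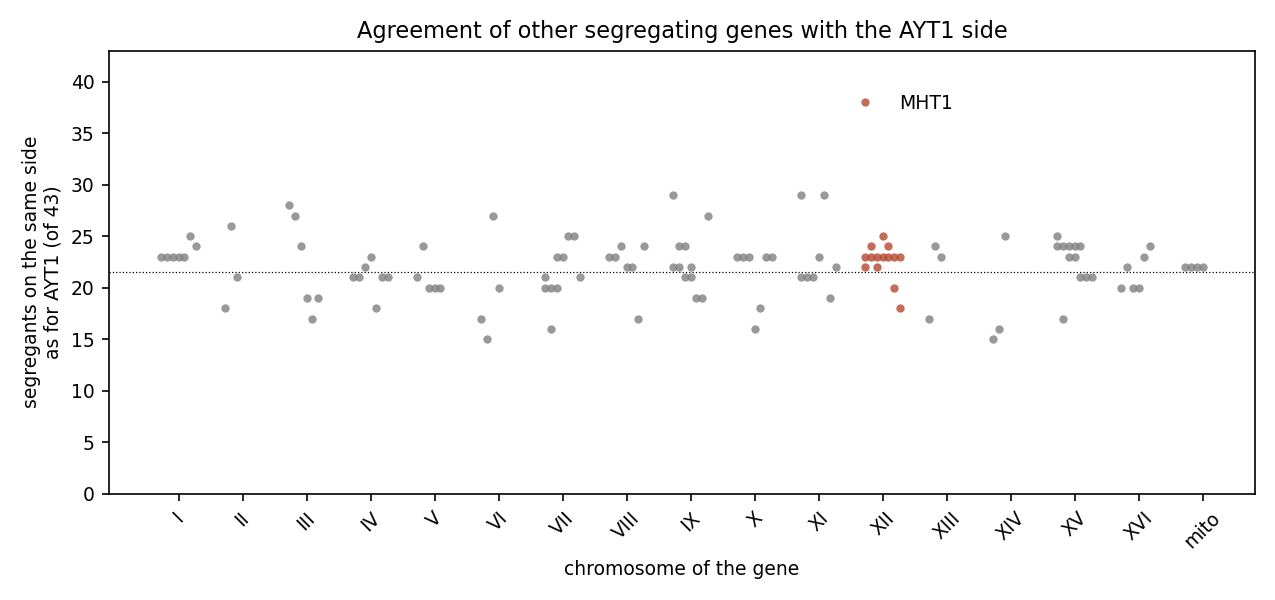
Number of segregants, of 43, that a gene with a parental difference of at least 2 log2 units placed on the same side as AYT1 (vertical axis), by chromosome of the gene (horizontal axis); the dotted line is at equal numbers. MHT1 stands at 38, and all other genes lie between 15 and 29.

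Within a side, where AYT1 no longer separates the segregants, MHT1 was set against 5 neighbours, giving 10 correlations over both sides. MHT1 followed MMP1 in both. In the 21 HS959-side segregants Pearson's r was 0.85 and Spearman's rho 0.84 (permutation p = 1e-05 for each, the smallest that 100000 permutations can give; adjusted p = 0.0001). In the 22 S96-side segregants r was 0.65 (permutation p = 0.00129, adjusted 0.00645) and rho 0.63 (permutation p = 0.00199, adjusted 0.00995).

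The correlation of MHT1 with MMP1 was recomputed without outlying segregants. Without the 2 segregants farthest from the MMP1 median, r was 0.73 on the HS959 side and 0.64 on the S96 side, and without SEG9 or SEG42 it was 0.86 and 0.69. The slides hold at most 5 segregants of a side, too few for a value within each. With YLL059C, HSU1, JLP1 and YCT1, r lay between -0.05 and 0.27 over both sides, and none of these 8 correlations passed (lowest adjusted permutation p 0.763).

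**Figure D5:**
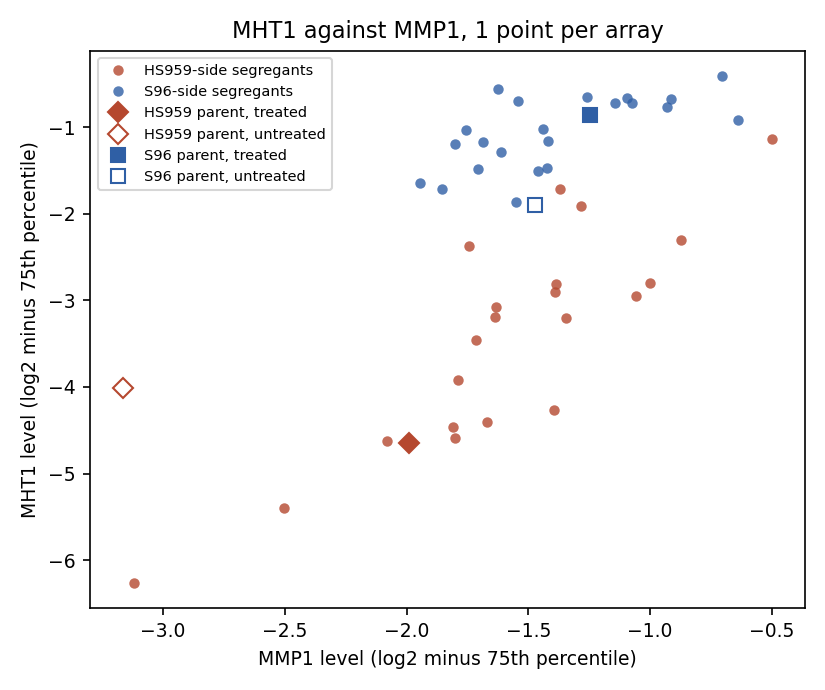
MHT1 level (vertical axis) against MMP1 level (horizontal axis), both log2 intensity relative to the 75th percentile, for 21 HS959-side and 22 S96-side segregants and the parents. MHT1 rises with MMP1 within each side (r of 0.85 and 0.65), and at like MMP1 levels most HS959-side points lie below the S96-side points.

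No gene outside chromosome XII passed. Of 5699 such genes limma called 0, the rank-sum test called 0, and 139 (2.44%) had an unadjusted p under 0.05, led by RIM15, a nutrient-signalling kinase (0.22 ± 0.07, SE; unadjusted p = 0.00207; adjusted p = 1.00). Of those 139, 59 had the sign of both parental differences, a share like the 2383 of all 5699. The 3 with a difference of at least 1 log2 unit were SNZ3 at -1.21 ± 0.56 and SNZ2 at -1.17 ± 0.54, both vitamin B6 genes, and RSB1, a lipid-translocating exporter, at -1.09 ± 0.46 (SE). SNZ3 and SNZ2 are near-identical and may share probe signal. These 3 genes were higher in HS959 than in S96, by 3.84, 3.80 and 1.46 with alpha factor, so the segregant differences had the opposite sign; they were picked after their values were seen.

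The genes whose levels followed AYT1 most closely over the 43 segregants, by absolute Pearson correlation, were MHT1, YLL059C, JLP1 and ENT4, followed by RIM15, YIL067C, PXP1, HXT3, PEX31 and YPL251W on other chromosomes. Because AYT1 levels form separate clusters, the correlation restates the difference between sides and its value is not given. HXT3, a glucose transporter gene, averaged 1.47 ± 0.55 in HS959-side and 1.80 ± 0.20 in S96-side segregants (SD), and PEX31, a peroxisomal gene, differed by -0.20; neither passed (adjusted p = 1.00 in limma).

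Methionine synthesis, which MHT1 feeds, was followed with a list of 33 sulfate assimilation and methionine synthesis genes. Of these, 25 had higher means on the HS959 side, against 3258 of all 6239 genes tested. Their median difference was 0.11, and limma called none. At an unadjusted p under 0.05 there were 2, against 150 of the 6239. SAM3, the S-adenosylmethionine permease, differed by 0.63 ± 0.33, STR3, cystathionine beta-lyase, by 0.59 ± 0.33, MET14, adenylylsulfate kinase, by 0.39 ± 0.14, and MET32, a zinc-finger regulator of the pathway, by 0.39 ± 0.16 (SE). In SEG14 STR3 reached -0.62, above the highest of the 42 others, -1.04.

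The 24 seripauperin (PAU) genes, which include PAU18 next to AYT1, had higher means on the HS959 side in 23 cases. Of all 6239 genes tested, 3258 were higher. The median difference of the PAU genes was 0.36, and none had an unadjusted p under 0.05. PAU5 differed by 0.72 ± 0.49 and PAU2 by 0.54 ± 0.36 (SE). Within a side the spread exceeded that, with SDs of 1.56 and 1.70 for PAU5, and because these genes share sequence the 24 values are not independent.

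No listed gene of the response to alpha factor passed. Of 38 pheromone-induced genes, 33 had lower means on the HS959 side, against 2981 of all 6239 genes tested. Their median difference was only -0.02, and none was called (1 at an unadjusted p under 0.05). That 1 was PGU1, an endopolygalacturonase gene, which had the largest difference of the list and was higher on the HS959 side by 1.00 ± 0.34 (SE; unadjusted p = 0.00495; limma adjusted p = 1.00). FUS1, a cell fusion gene, had a median of 1.80 in HS959-side and 1.87 in S96-side segregants, against -1.38 in untreated HS959 and -1.50 in untreated S96. Of 21 pheromone signalling genes none was called or had an unadjusted p under 0.05.

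No marker of cell type passed between the sides. STE2, the alpha factor receptor gene of MATa cells, had a median of 2.28 on the HS959 side and 2.36 on the S96 side, and stood at 2.47 in treated HS959 and 2.93 in treated S96. STE3, the a-factor receptor gene of MATalpha cells, had a median of -4.66 on the HS959 side and -4.48 on the S96 side, and -5.27 in treated HS959 and -3.12 in treated S96. None of 7 a-specific genes (median difference -0.03) and none of 5 alpha-specific genes (median difference -0.28) was called or had an unadjusted p under 0.05. The alpha-specific genes were lower on the HS959 side in 5 of 5 cases, against 2981 of all 6239 genes tested.

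The remaining lists held no called gene. Of all 6239 genes tested, 2981 had lower means on the HS959 side and 150 had an unadjusted p under 0.05. Genes of a list can rise and fall together, so the members counted in any list are not independent. All 11 daughter-cell genes had lower means on the HS959 side (median -0.18), led by DSE1, a daughter-cell wall protein gene, at -0.94 ± 1.17 (SE), whose SD within a side was 4.01 and 3.84. Chaperones with HSP104, on the left arm, were lower in 14 of 16 cases (median -0.05), and HSP104 itself differed by -0.24 ± 0.13 (SE). Multidrug and toxin transporters were lower in 17 of 24 cases (median -0.10, 1 at an unadjusted p under 0.05) and iron uptake genes in 15 of 18 (median -0.12, 2 at an unadjusted p under 0.05).

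Targets of HAP1, a heme-responsive activator of chromosome XII, had a median difference of -0.01 over 20 genes, and HAP1 itself differed by 0.01 ± 0.17 (SE). The 5 aquaporin and glycerol channel genes, which include AQY2 and YLL053C near AYT1, had a median of -0.12, and the 15 phosphate starvation genes a median of 0.05. In these 3 lists and among the daughter-cell and chaperone genes no member had an unadjusted p under 0.05. The rank-sum test called no member of any list other than MHT1 and JLP1.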

How the data were processed

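RNA of 43 treated segregants, 4 parent arrays and untreated SEG8 was measured on 48 1-colour arrays of 6256 genes, 2 spots each. The deposited scanner files hold intensity, which per the file headers is Cy3 brightness background-subtracted and detrended by Agilent Feature Extraction 10.5.1.1 on design 016322, with no scaling between arrays; the submitters' processing notes name version 9.1. The other columns used are spot types and 0 or 1 marks for background, saturation and outliers, per the file headers. The authors' value table held the same intensity in 600576 of 600576 gene-spot cells, with column medians from 9804 to 23353, on a linear scale with no centring.

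From these, log2 intensity minus the log2 of the 75th percentile over gene spots was averaged per gene without outlier spots. The test took genes whose spots were well above background on 10 or more arrays (6239; 16 removed; AYT1 left out) with limma 3.58.1 in R 4.3.3 (lmFit, eBayes, two-sided, residual df 41, prior df 2.16), HS959 side minus S96 side, called at a Benjamini-Hochberg adjusted p under 0.05. The precision rests on the number of arrays and on the spread of each gene within the sides. Fisher's exact tests and 100000-permutation correlations used scipy 1.17.1. Alternatives covered scaling, background, filters, slide, test, rule for the side and single segregants. Of the array names, 5756 matched the reference table (R64), used for symbols only; the array is annotated on sacCer1, so no coordinates are given.

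The members, the gene lists and the tests were chosen with earlier results of these data known. Named were AYT1, the genes from YLL045 outward, called genes, up to 4 of each list with the largest difference, the 10 closest to AYT1 by correlation, 8 segregating genes, HAP1, and markers of mating type and pheromone response (FUS1 among them); any others are named as chosen after their values were seen.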

Additional observations from a re-analysis of the deposited data

How the results depend on the processing

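The sides held 21 HS959-side segregants under each alternative scaling, with outlier spots kept and with the split at the widest gap. MHT1 kept its direction and its call in 13 of 13 alternative settings of the whole comparison (-2.47 to -2.31) and in 43 of 43 fits that each left out 1 segregant, an alternative chosen after seeing the data; within single slides it kept its direction without passing. The split at the widest gap changed no side, so that setting repeats the full comparison. The settings without SEG12 and without SEG14 are also among those 43 fits, so the counts are not of separate fits. Leaving out single segregants gave 1 to 2 called genes (1 in 31 fits). SEG12 was left out in 1 setting as far from both parents by its AYT1 level of -13.71. That level was not well above background, so its distance from HS959 has no meaning. The count of called genes, 2 in the full comparison, was 1 with quantile scaling, with slide as a block, with the PEX30 side as a covariate and without SEG12, MHT1 being the gene left each time. The call lost was YLL059C, with limma adjusted p of 0.283, 0.0795, 0.0688 and 0.0924 in that order; the cause was not tested. It held without SEG5, SEG8, SEG9, SEG11, SEG16, SEG21, SEG30, SEG32, SEG43, SEG45 or SEG48 and was lost without any 1 of the other 32. On slide 2 YLL059C reversed to 0.027, and on slide 4 ENT4 reversed to -0.092; the cause was not tested. Leaving out SEG14 added JLP1 and lost YLL059C, and the rank-sum test called 3 genes. The median agreement of chromosome XII genes with the AYT1 side, 53.5%, was 51.2% to 56.1% under the alternatives. No paired analysis was possible because the sides hold different segregants, and treated and untreated segregants share only SEG8. The number of arrays and the signal over background limit the comparison: AYT1 itself was well above background on 1 HS959-side array, and genes with an SE near 1 could differ by more than 2-fold unseen. Differences can also go uncalled at a lower SE, as that of JLP1 did at -0.81 with an SE of 0.22.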

Other observations

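SEG14 had the highest level of 2 sulfur genes among the segregants. JLP1 stood apart at -1.08 in SEG14, against -6.06 to -3.14 in the 42 others, while STR3 at -0.62 was closer to the others, which ran from -5.53 to -1.04. The sulfate transporter genes SUL1 and SUL2 stood at -2.49 and -2.83 in SEG14, with 4 other segregants above it for each, while MHT1 at -4.27 and MET17 at 1.65 lay inside the range of the others, and YCT1, at -2.80, lay below all 42. SEG14 was also the array with the lowest share of spots well above background, 94.0%; its part in these values was not tested. SEG14 was also the highest segregant for genes outside the sulfur lists. YJL182C stood at -6.63, YKL202W at -6.91 and DIG2 at 0.87, against highest S96-side values of -9.51, -9.06 and 0.72. How many of all genes were highest in SEG14 was not counted, so its high values are not particular to sulfur genes. These genes were named after their values were seen.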
